A study of Arabidopsis thaliana with 9 samples.

Results

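The loci described here are 276 nuclear loci of Arabidopsis thaliana, of 33602 loci in the deposited tables, whose transcripts were not counted in wild-type leaves, were counted in homozygous ddm1 leaves and stayed low in F1 leaves with 1 mutant allele. A locus was a member when its estimated count was 0 in all 3 wild-type libraries and 10 or more in each of 3 ddm1 libraries. Its mean TPM (a level scaled to library size and corrected for transcript length) in the F1 also had to be below 0.1 times its mean TPM in ddm1. Of 920 loci that met the first and second conditions, 3 were left out by name, 276 met the ratio, 484 had an F1 to ddm1 ratio from 0.1 to under 0.5, and 157 had a ratio of 0.5 or more. These 2 other sets serve below as the comparison and are called the partly active and the strongly active loci. Members were thus chosen by their counts and TPM in all 3 genotypes, and those levels are a description and carry no test.

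The study profiled total RNA, depleted of ribosomal RNA, from leaves of plants aged 4 to 5 weeks, with 3 libraries described as independent biological replicates in each of 3 groups. The groups were wild-type Col-0, the F1 of the cross written Col-0 X ddm1 (genotype DDM1/ddm1, hence 1 mutant allele over a wild-type one), and ddm1 plants of the second generation, homozygous for the mutation. All 3 groups share the Col-0 background. The mutant allele, the direction of the cross beyond its label, the ddm1 parent of the F1 and the number of plants behind a library were not found in the labels, and p-values below measure the spread between these 9 libraries.

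DDM1 is a chromatin remodeller of the SNF2 family that gives DNA methyltransferases access to nucleosome-packed heterochromatin. Without it, methylation at CG sites, copied by MET1, and at non-CG sites, laid down by CMT2 and CMT3, is lost from transposons, and many of them are transcribed. A chromosome inherited from a ddm1 plant enters the F1 with that loss, and a separate pathway, RNA-directed DNA methylation with its polymerases, AGO4 and DRM2, can restore methylation at some elements but not at others. Plants that carry such chromosomes are therefore used to ask which elements return to silence once DDM1 is present again.

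The libraries held 15996806 to 22425699 estimated counts, of which 64.7% to 72.8% fell on plastid and mitochondrial loci. DDM1 itself was counted too thinly to check the genotypes, with 3, 12 and 5 estimated counts in the wild type, 2, 0 and 8 in the F1 and 1, 2 and 2 in ddm1. The leaf label held: 4 leaf markers summed to between 1730 and 14246 TPM in every library, 3 root markers to at most 6.50, 3 flower markers to at most 1.36, the pollen marker VGD1 to at most 4.26, and both seed markers were at 0. Summed leaf markers were lowest in the F1, at 1730, 2184 and 4361 TPM, against 5759, 5830 and 12183 in ddm1, and their part in the levels of the members was not tested.

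One F1 library stood apart for the members. The 276 loci summed to 69.6 TPM in F1 library 1, 78.6 in library 2 and 249 in library 3, against 2665, 2260 and 3774 in the 3 ddm1 libraries. The third F1 library was thus above the other F1 libraries and still far below every ddm1 library. As a share of nuclear counts the members made up 0.0489%, 0.0540% and 0.166% in the F1 and 1.61%, 1.49% and 1.82% in ddm1. In leaf RNA of whole samples, fewer cells that transcribe a locus and less RNA per cell cannot be told apart. Without F1 library 3 the same rule selected 328 loci, 264 of them members.

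As a ratio, the split between F1 libraries was larger for the members than for the other silent loci. The partly active loci summed to 1004, 940.3 and 1218 TPM in the 3 F1 libraries and the strongly active loci to 734, 675 and 765 TPM. Library 3 was therefore 3.36 times the mean of libraries 1 and 2 for the members, 1.25 times for the partly active loci and 1.09 times for the strongly active loci. The rule caps the members' F1 mean, so their ratio rests on a small base. In TPM, the rise from libraries 1 and 2 to library 3 was larger for the partly active loci. In ddm1 the partly active loci summed to 3439, 3598 and 3536 TPM, so the 3 ddm1 libraries differed little from each other there. How this library differs (plants, seed batch or handling) is not given in the sources used here.

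**Figure D1:**
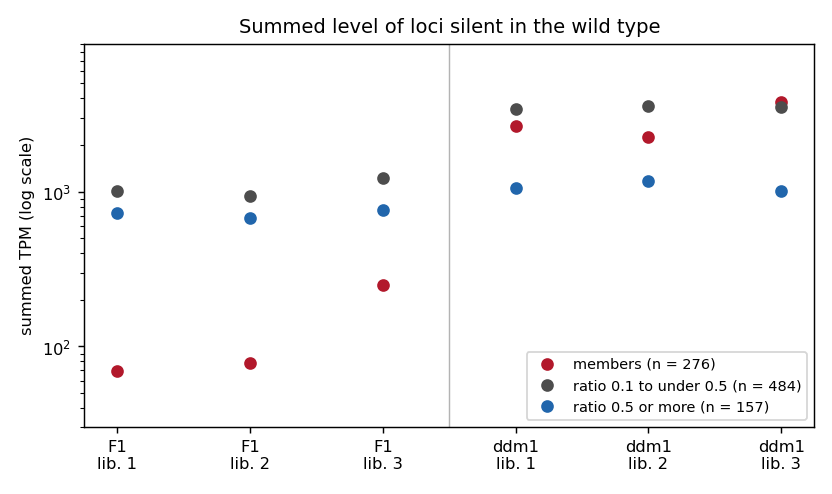
Summed TPM (log scale) of the 276 members, the 484 partly active and the 157 strongly active loci in each F1 and ddm1 library; each point is 1 library, and all sums are 0 in the wild type. The members sit at 69.6, 78.6 and 249 TPM in the F1 and at 2260 to 3774 TPM in ddm1. The sets were cut on the F1 to ddm1 ratio, so the order of their gaps follows from the rule.

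Silent is too strong a word for most members in the F1. Only 45 of the 276 had 0 counts in all 3 F1 libraries, and 231 had at least some. Members with a count numbered 154, 154 and 184 in F1 libraries 1, 2 and 3, while those at 1 TPM or more numbered 13, 15 and 62. The same threshold was met by 193, 192 and 185 members in the ddm1 libraries. The median member had an F1 to ddm1 ratio of 0.0354, and 58 members were under 0.01. For every member the highest F1 library lay below the lowest ddm1 library.

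**Figure D2:**
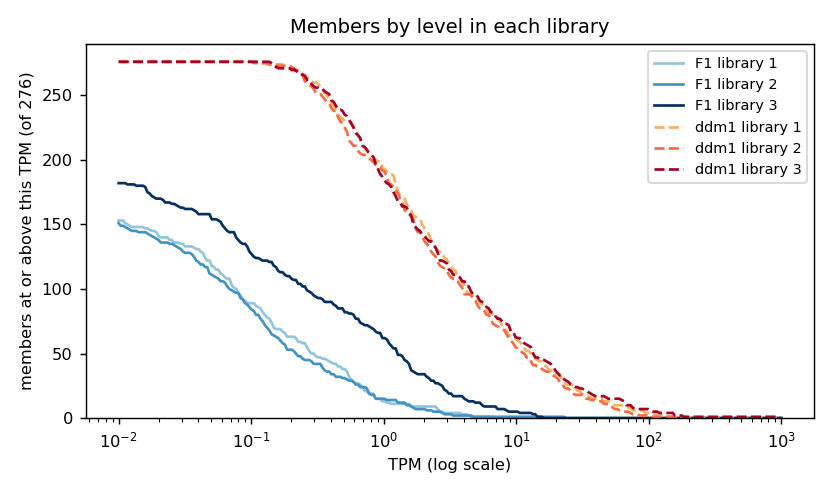
Number of members (y axis) at or above each TPM (x axis, log scale) in the 3 F1 libraries (solid) and the 3 ddm1 libraries (dashed). At 1 TPM the F1 curves stand at 13, 15 and 62 members and the ddm1 curves at 193, 192 and 185.

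Levels in ddm1 were modest and uneven. The median member reached 2.15 TPM in ddm1, 83 members averaged under 1 TPM, 60 averaged 10 TPM or more, and 10 members supplied 41.9% of the members' summed ddm1 TPM. Against 3 counts over the wild-type group, the level that a count of 0 allows, ddm1 was at least 16.6-fold higher for every member and at least 98.4-fold higher for the median one. These limits cover counting error only.

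**Figure D3:**
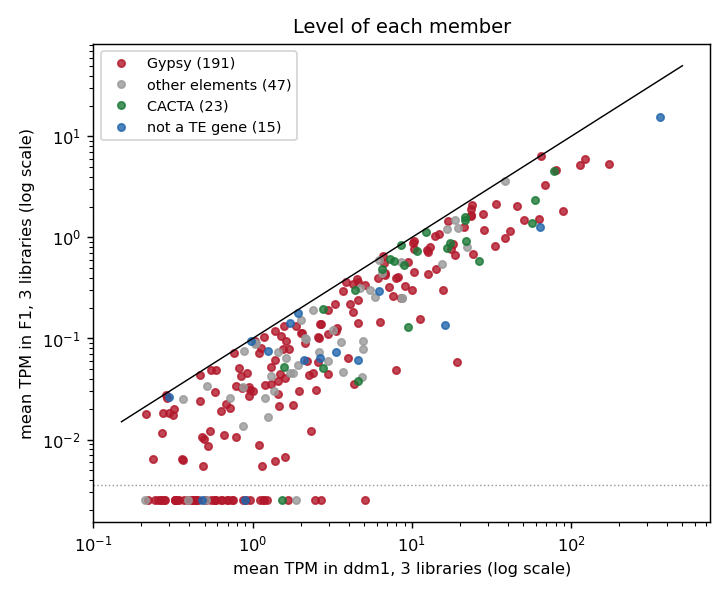
Mean TPM in ddm1 (x axis) against mean TPM in the F1 (y axis), both on log scales, for each of the 276 members, coloured by element class; the line marks the 0.1 ratio of the rule. The row of 50 points under the dotted line holds members below 0.005 TPM in the F1, 45 of them at 0.

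In edgeR's quasi-likelihood test over 18216 loci with Benjamini-Hochberg adjustment, 272 members passed the filter on low counts and 4 did not. Of these, 270 were called higher in ddm1 than in the wild type (6.87% of all tested loci were), 244 lower in the F1 than in ddm1 (10.3% of all tested loci) and 103 higher in the F1 than in the wild type (13.5% of all tested loci). The rule itself used these levels, so nothing is read from the counts. The median log2 difference of the tested members between F1 and ddm1 was -4.65, or -4.45 with the 42 members at 0 in the F1 set to their bound, beside -0.01 for all tested loci. The 244 fell to 129 without F1 library 1, 156 without F1 library 2, 141 without ddm1 library 1 and 148 without ddm1 library 2. The 103 fell to 67 without wild-type library 1, 60 without wild-type library 2 and 33 when the F1 and wild-type libraries alone were fitted.

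The members just inside the ratio were AT3G30790, AT4G06621 and AT1G42370, at 0.0982, 0.0982 and 0.0987. Just outside stood AT5G30762, AT3G43130 and AT3G32210, at 0.101, 0.101 and 0.101. No gap in the values separates the members from the partly active loci.

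Most members were transposons, as were most other silent loci. Transposable element genes in the annotation made up 261 of the 276 members (94.6%), 89.0% of partly active and 87.3% of strongly active loci. Element classes were assigned by translated similarity to annotated or motif-bearing elements, which returned 179 of 191 reference elements to their own class when each was left out and assigned 184 to any class. Of the 191, 102 were Gypsy, with 99 returned, and only 3 were CACTA, with 2 returned. The check therefore says little about the CACTA class. Gypsy elements, retrotransposons with long terminal repeats that copy themselves through RNA, made up 69.2% of the members, 38.8% of the partly active loci and 24.8% of the strongly active loci. Copia elements, the other large class of such retrotransposons, made up 1.09%, 10.1% and 3.82%. CACTA elements, DNA transposons that are cut out and reinserted by a transposase, made up 8.33%, 6.20% and 6.37%.

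Smaller classes filled in the rest. Loci like open reading frame 1 of Athila, a Gypsy family abundant around Arabidopsis centromeres, numbered 8 members, 10 partly active and 3 strongly active loci. That class had only 4 reference elements, of which 3 were returned to it when left out. Mutator-like elements (MULE) numbered 3, 17 and 4, and LINE retrotransposons, which lack long terminal repeats, 0, 8 and 1. A match to Athila open reading frame 1 was also found in 67 of the 191 Gypsy members (35.1%), in 34 of 188 partly active Gypsy loci (18.1%) and in 1 of 39 strongly active ones (2.56%). Elements that could not be assigned made up 11.6% of members and 46.5% of strongly active loci.

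**Figure D4:**
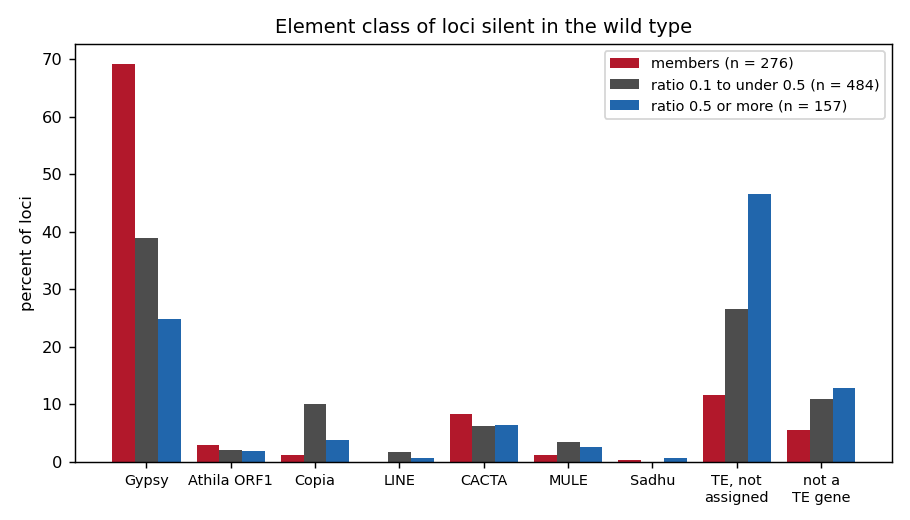
Share of loci (percent, y axis) in each element class for the 276 members, the 484 partly active and the 157 strongly active loci. Gypsy falls from 69.2% of the members to 24.8% of the strongly active loci, while unassigned elements rise from 11.6% to 46.5%.

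Position and composition differed in the same order. Within 2.5 Mb of the middle of the densest transposon window of each chromosome lay 87.3% of members, 80.4% of partly active and 78.8% of strongly active loci. The median distance to that middle was 0.821, 1.15 and 1.48 Mb. Median GC content was 43.5%, 41.7% and 40.7%, and CG sites, the context copied by MET1, numbered 2.81, 2.60 and 2.21 per 100 bases. Loci related in sequence share such features, so these are descriptions of families as much as of single loci.

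Sequence groups, linked at 80% identity over at least 50% of the shorter locus, separated members from other silent loci unevenly. The largest group, mostly Gypsy, held 350 loci, of which 174 were members, 148 partly active and 28 strongly active. It also held AT1G36200, AT3G30790, AT3G42653 and AT4G03775, members classed as CACTA by translated similarity. Class and sequence group thus disagree for these loci, and which is right was not tested. A CACTA group of 36 held 19 members, 14 partly active and 3 strongly active loci, while another CACTA group of 11 held 0, 6 and 5. A group of 14 elements of no assigned class held 13 members and 1 partly active locus. Near-identical copies, at 95% identity over at least 80% of the shorter sequence, existed elsewhere in the genome for 141 members (51.1%), 31.4% of partly active and 24.8% of strongly active loci. The 4 largest groups of such copies among the members were 20 Gypsy loci led by AT5G32053, 15 Gypsy loci led by AT1G41720, 11 elements of no assigned class led by AT3G47260 and 11 CACTA loci led by AT2G10480. Their F1 to ddm1 ratios reached at most 0.0732, 0.0987, 0.0804 and 0.0840 in that order, each with a lowest value of 0. Reads from such copies are divided between them by the counting tool, so single values within these families are uncertain; AT3G26530 and AT5G44890 are identical in sequence and have identical values.

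The Gypsy members carried most of the split between F1 libraries. Their 191 loci summed to 38.6, 23.8 and 179 TPM in the F1 and to 1823, 1435 and 2072 TPM in ddm1. Library 3 was 5.73 times the mean of libraries 1 and 2 for them, against 1.49 times for the 188 partly active Gypsy loci, which summed to 193, 188 and 284 TPM. Of the 153 Gypsy members with any F1 count, the highest F1 value lay in library 3 for 107, in library 2 for 25 and in library 1 for 21. The 8 members like Athila open reading frame 1 showed the same order, at 1.24, 1.06 and 9.31 TPM in the F1 and 76.6, 66.0 and 68.5 TPM in ddm1.

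Single Gypsy members show how uneven the F1 libraries were. AT4G06720 (chr4:4019626-4021476, minus strand), the transposon member highest in ddm1, stood at 1.58, 0.352 and 14.2 TPM in the F1 and at 198, 165 and 156 TPM in ddm1. AT5G32306 (chr5:11941158-11943053, plus strand) stood at 2.81, 0.849 and 14.1 TPM in the F1 and at 128, 84.8 and 155 TPM in ddm1. AT5G32053 (chr5:11800200-11802224, minus strand) was at 0, 0 and 5.46 TPM in the F1 and at 88.9, 62.9 and 116 TPM in ddm1. In each of these loci F1 library 3 was the highest F1 library, and no F1 value reached a ddm1 value.

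In 115 members a single F1 library supplied at least 80% of the summed F1 TPM. Where that library held at least 10 counts, which was so for 59 members, it was library 3 for 51. AT5G31719 stood at 0.546, 0.0650 and 3.94 TPM in the F1 against 70.1, 44.6 and 74.0 in ddm1, and AT3G42716 at 0.171, 0.184 and 4.11 against 45.4, 40.7 and 66.5. AT2G13400 stood at 0.768, 0 and 5.41 TPM in the F1 and at 45.3, 25.9 and 66.7 in ddm1. The Athila-like locus of highest level, AT2G06330, followed at 0.107, 0.0683 and 2.25 TPM in the F1 and 27.9, 19.2 and 19.2 in ddm1. All 4 were high in library 3 alone. AT4G07605, also among the 8 members of highest ddm1 level, was spread more evenly, at 4.54, 2.11 and 7.20 TPM in the F1 and 63.1, 70.3 and 107 in ddm1.

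Classes other than Gypsy and its Athila-like loci showed less of that split or none. Library 3 was 1.83 times the mean of libraries 1 and 2 for the 23 CACTA members, 1.98 times for the 32 elements of no assigned class and 0.928 times for the 15 members outside the transposon annotation. The 1.98 rests largely on 1 locus: AT3G30610 held 8.46 of the 14.3 TPM of the 32 elements in library 3. Library 3 was the highest F1 library for 6 of these 32. By position, the 35 members on the chromosome arms summed to 5.14, 10.4 and 9.12 TPM in the F1 and to 220, 227 and 218 in ddm1, so library 3 was 1.17 times the mean of libraries 1 and 2. The 240 pericentromeric members, with 60.7, 68.2 and 240 TPM in the F1, gave 3.72 times. One member, AT3G32905, is not in the annotation used and has no position here. The smallest classes were low in every F1 library: the Copia member of highest ddm1 level, AT2G21310, was at 0.144, 0.0189 and 0 TPM in the F1 and 1.18, 1.71 and 2.86 in ddm1. The corresponding Mutator-like locus AT3G33160 was at 0.0609, 0.140 and 0.0857 TPM against 5.21, 5.11 and 4.53. AT1G50735, a Sadhu element (a non-autonomous retroposon), was at 0.140, 0 and 0 TPM against 4.07, 4.70 and 2.39. The highest element of no assigned class, AT3G30610, stood at 1.55, 0.856 and 8.46 TPM in the F1 and 35.5, 32.4 and 47.0 in ddm1.

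Some near-identical copies fell on both sides of the 0.1 ratio. A copy at 95% identity or more among the partly or strongly active loci existed for 37 members, in 49 pairs, 1 of which involved a strongly active locus (AT5G29574, a copy of the CACTA member AT1G44070). The following stretches of 100 bases show how little separates some of these copies where they align. The pairs were chosen after their values were seen. The stretches come from the TAIR10.1 reference sequence and are printed 5′ to 3′ on the strand of the locus. Capitals mark the bases that differ within a set. The first set is the CACTA member AT1G36200 (chr1:13580818-13580917, minus strand) and the partly active AT3G32226 (chr3:13198715-13198814, plus strand). AT1G36200 is CACTA by translated similarity, although it lies in the largest sequence group, which is mostly Gypsy.

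AT1G36200: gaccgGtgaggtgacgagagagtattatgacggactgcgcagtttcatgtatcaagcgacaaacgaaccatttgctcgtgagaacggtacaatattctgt
AT3G32226: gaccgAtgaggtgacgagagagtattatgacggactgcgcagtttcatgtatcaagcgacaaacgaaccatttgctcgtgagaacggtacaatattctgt

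The 2 stretches differ at 1 base, and the 2 loci are 96.9% identical where they align. AT1G36200 stood at 2.58, 2.82 and 8.18 TPM in the F1 and 94.1, 74.0 and 65.1 in ddm1, a ratio of 0.0583. AT3G32226 stood at 15.4, 12.7 and 15.8 TPM in the F1 and 93.2, 78.7 and 87.1 in ddm1, a ratio of 0.170. Their ddm1 levels overlapped, whereas in the F1 every value of AT3G32226 was above every value of AT1G36200.

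A Gypsy pair lay farther apart. The member AT1G35647 (chr1:13183278-13183377, minus strand) and the partly active AT4G06620 (chr4:3735929-3736028, minus strand) are 99.2% identical where they align and differ at 2 of the 100 bases shown. The stretch starts at base 2860 of AT1G35647 and at base 9 of AT4G06620, so the 2 loci are not copies over their whole length.

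AT1G35647: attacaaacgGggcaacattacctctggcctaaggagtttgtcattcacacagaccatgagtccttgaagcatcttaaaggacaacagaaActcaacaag
AT4G06620: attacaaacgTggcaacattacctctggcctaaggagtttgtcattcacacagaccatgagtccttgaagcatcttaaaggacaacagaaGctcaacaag

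AT1G35647 was at 0, 0 and 0.176 TPM in the F1 and at 26.2, 25.2 and 6.22 in ddm1, a ratio of 0.00305. AT4G06620 was at 0.571, 0.175 and 0.770 TPM in the F1 and at 2.54, 2.68 and 1.49 in ddm1, a ratio of 0.226. The copy with the lower level in ddm1 was thus the one with the higher level in the F1 in libraries 1, 2 and 3 alike.

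In another Gypsy set, the members AT5G32143 (chr5:11821464-11821563, minus strand) and AT5G32517 (chr5:12150705-12150804, minus strand) stand beside the partly active AT4G06615 (chr4:3284111-3284210, plus strand), with 7 and 5 differences from the first.

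AT5G32143: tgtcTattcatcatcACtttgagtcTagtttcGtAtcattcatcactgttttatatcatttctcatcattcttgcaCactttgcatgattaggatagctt
AT5G32517: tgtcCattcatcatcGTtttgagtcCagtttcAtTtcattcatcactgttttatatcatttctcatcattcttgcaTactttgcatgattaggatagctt
AT4G06615: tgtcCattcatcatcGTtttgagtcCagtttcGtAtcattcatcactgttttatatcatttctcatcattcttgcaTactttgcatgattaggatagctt

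AT5G32143 stood at 2.53, 0.129 and 13.0 TPM in the F1 and 111, 53.2 and 178 in ddm1. AT5G32517 stood at 1.02, 1.71 and 7.21 TPM in the F1 and 55.3, 50.5 and 101 in ddm1. AT4G06615 stood at 8.70, 6.44 and 16.9 TPM in the F1 and 70.2, 51.7 and 100.1 in ddm1, a ratio of 0.145. In all 3 loci F1 library 3 was the highest F1 library. Whether reads were assigned to the right copy was not tested, and it bears on each of these values.

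Most of the 23 CACTA members shared an arrangement with their neighbours. CACTA elements are autonomous when they encode the transposase that cuts them out, and family members carry further open reading frames. The 23 members summed to 10.2, 21.5 and 29.0 TPM in the F1 and to 361, 386 and 475 in ddm1. For 19 of the 23, the next locus on the 3′ side was a transposable element gene on the same strand within 2000 bases, at a gap of 359 to 1680 bases (median 1008), and none of these 19 neighbours was itself a member. Of the neighbours, 15 belong to 1 sequence group, and no member shares a 100-base alignment with its own neighbour. The arrangement was noticed after the values were seen.

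In most of these 19 pairs the neighbour was well above its member in the F1. The 19 members summed to 7.92, 16.3 and 23.6 TPM in the F1 and to 292, 313 and 373 in ddm1. Their neighbours summed to 485, 412 and 501 TPM in the F1 and to 1053, 1124 and 877 in ddm1, beside 0.0835, 0.0456 and 0.0982 in the wild type. The F1 to ddm1 ratio had a median of 0.0506 for the members (0 to 0.0924, bounded by the rule) and of 0.492 for the neighbours (0.225 to 0.672). The members' ratios were capped by the rule, so the order within a pair is a description. The exceptions in level were AT4G03770, at 0.421, 0.00829 and 0.0677 TPM in the F1 beside the member AT4G03775 at 0.278, 0.124 and 0.506, and AT3G30670, at 3.19, 0.742 and 0 TPM beside AT3G30680 at 0.760, 0.207 and 1.41. Both overlap their member across the F1 libraries.

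**Figure D5:**
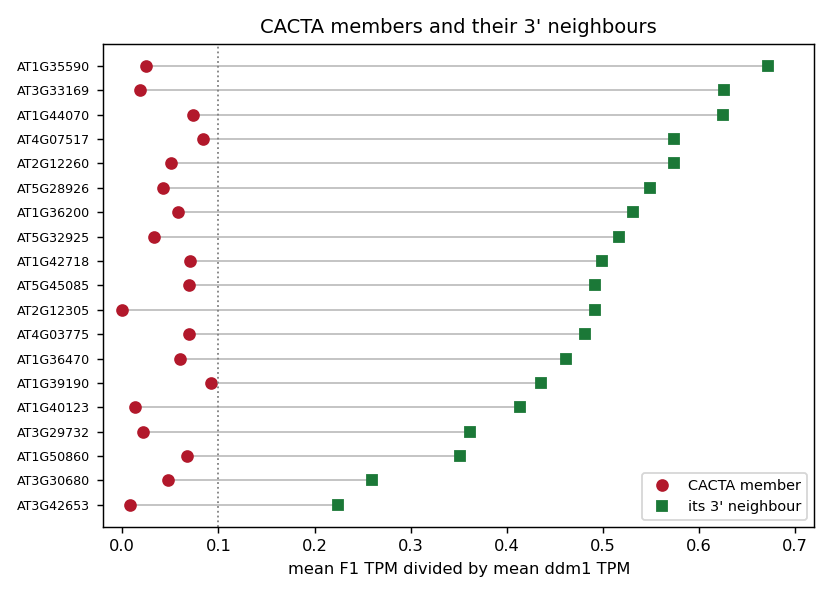
F1 to ddm1 ratio of mean TPM (x axis) for each of the 19 CACTA members (circles, 1 row each) and for the same-strand locus next to it on the 3′ side (squares), joined by a line; the dotted line marks the 0.1 ratio of the rule. Members lie between 0 and 0.0924 and neighbours between 0.225 and 0.672.

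The rule did not use the neighbours' values beyond their not being members. In edgeR's quasi-likelihood test, 18 of the 19 neighbours were called higher in the F1 than in the wild type, 17 higher in ddm1 than in the wild type and 6 lower in the F1 than in ddm1. Among all 973 tested transposable element genes that are not members, 78.5%, 83.2% and 32.2% were called in these directions, which is the background for these counts. On the 5′ side, 4 of the 23 members had such a same-strand locus, and the 1 of these that passed the filter was not called in any of these contrasts. Pairs of this kind were also found for 14 of 30 partly active CACTA loci, with median ratios of 0.273 for the locus and 0.471 for the neighbour, and the neighbour had the higher ratio in 11 of these 14. For 5 of 10 strongly active CACTA loci the medians were 0.597 and 0.652, and the neighbour had the higher ratio in 2 of the 5.

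Stretches of 3 members and of their 3′ neighbours are printed to show that the members resemble each other, and the neighbours each other. The first 100 bases of the members AT1G50860 (chr1:18854257-18854356), AT1G44070 (chr1:16750481-16750580) and AT2G12305 (chr2:4933307-4933406), all on the minus strand, differ from the first of them at 7 and 3 bases.

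AT1G50860: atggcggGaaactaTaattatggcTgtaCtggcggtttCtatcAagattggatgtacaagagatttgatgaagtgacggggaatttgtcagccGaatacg
AT1G44070: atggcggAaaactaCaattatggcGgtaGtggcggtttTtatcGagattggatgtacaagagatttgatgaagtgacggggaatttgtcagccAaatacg
AT2G12305: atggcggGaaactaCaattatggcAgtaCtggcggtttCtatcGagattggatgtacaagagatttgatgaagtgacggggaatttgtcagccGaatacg

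The aligned stretches of the neighbours AT1G50850 (chr1:18848346-18848445), AT1G44060 (chr1:16744365-16744464) and AT2G12300 (chr2:4927142-4927241), also on the minus strand, differ from the first at 11 and 3 bases.

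AT1G50850: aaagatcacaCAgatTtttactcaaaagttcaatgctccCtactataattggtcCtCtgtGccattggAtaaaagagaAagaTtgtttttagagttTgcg
AT1G44060: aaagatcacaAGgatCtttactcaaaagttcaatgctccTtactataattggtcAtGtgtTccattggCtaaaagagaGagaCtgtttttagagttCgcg
AT2G12300: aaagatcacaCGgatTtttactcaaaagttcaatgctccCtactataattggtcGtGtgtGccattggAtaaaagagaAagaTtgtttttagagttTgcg

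AT1G50860 was at 0, 0.770 and 1.41 TPM in the F1 and at 7.86, 11.2 and 13.2 in ddm1. Beside it, AT1G50850 was at 72.7, 66.0 and 56.9 TPM in the F1 and at 172, 206 and 179 in ddm1, with at most 0.0762 in the wild type. Its log2 difference between F1 and ddm1 was -1.34 (SE 0.41), with an edgeR adjusted p of 0.0539. All 3 F1 values lay below all 3 ddm1 values, and the difference missed the threshold of 0.05.

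AT1G44070 was at 0.957, 2.33 and 1.46 TPM in the F1 and at 18.4, 20.8 and 25.0 in ddm1. Its neighbour AT1G44060 was at 51.4, 48.2 and 59.1 TPM in the F1 and at 105, 86.0 and 62.8 in ddm1 (log2 difference -0.51, SE 0.29, edgeR adjusted p 0.260). AT2G12305 had 0 counts in the F1 and 1.46, 1.43 and 1.72 TPM in ddm1, while AT2G12300, 1079 bases away, was at 50.8, 29.8 and 30.5 TPM in the F1 and at 90.1, 77.0 and 59.0 in ddm1 (log2 difference -0.84, SE 0.34, edgeR adjusted p 0.121). In these 2 pairs the neighbour's difference between F1 and ddm1 did not pass the test. It did for AT1G39110, beside AT1G39190, at 42.7, 40.0 and 54.2 TPM in the F1 and 118, 115 and 81.1 in ddm1 (log2 difference -1.04, SE 0.23, edgeR adjusted p 0.0255).

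Elements of no assigned class included a family made up mostly of members. Its 14 loci form 1 sequence group, of which 13 are members and AT2G15140, at a ratio of 0.125, is partly active. The 13 members summed to 3.76, 2.10 and 0.574 TPM in the F1 and to 53.7, 40.8 and 34.6 in ddm1. Here F1 library 3 was the lowest: the highest F1 value lay in library 1 for 9 members, in library 2 for 2 and in library 3 for 0, and 2 members were at 0. The member of highest level, AT3G47260, stood at 2.51, 1.46 and 0.504 TPM in the F1 and at 23.3, 17.7 and 14.6 in ddm1.

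The bases just upstream of the annotated start carry a short repeat in this family, found after the values were seen. The motif searched, on both strands, was TTTATA, whose reverse complement is a common form of the TATA box, the promoter element bound by the TATA-binding protein. Below are the 120 bases upstream of the members AT3G47260 (chr3:17403009-17403128, plus strand), AT5G34900 (chr5:13219363-13219482, minus strand) and AT2G02210 (chr2:582051-582170, minus strand) and of AT2G15140 (chr2:6566589-6566708, plus strand), with the motif in capitals.

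AT3G47260: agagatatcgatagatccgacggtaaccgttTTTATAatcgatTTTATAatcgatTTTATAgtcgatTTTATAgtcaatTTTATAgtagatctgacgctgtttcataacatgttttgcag
AT5G34900: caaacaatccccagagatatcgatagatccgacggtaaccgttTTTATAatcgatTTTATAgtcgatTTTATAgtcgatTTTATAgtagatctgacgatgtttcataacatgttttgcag
AT2G02210: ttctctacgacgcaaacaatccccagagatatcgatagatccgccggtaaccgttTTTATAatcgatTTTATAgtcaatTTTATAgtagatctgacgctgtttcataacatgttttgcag
AT2G15140: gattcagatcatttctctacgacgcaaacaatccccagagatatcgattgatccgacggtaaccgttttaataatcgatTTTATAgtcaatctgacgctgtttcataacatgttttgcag

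Where it is repeated, the motif stands every 12 bases. Every match in this family reads TTTATA on the strand of the locus, so the TATA box form lies on the opposite strand. The motif occurs 5 times in 2 of the 13 members, 4 times in 6, 3 times in 3, 1 time in 1 and 0 times in 1 (AT1G32840), and 1 time in AT2G15140. In a window of 250 bases upstream, 11 of the 276 members held 3 or more matches on either strand, all of them in this family. The same held for 5.41% of 32835 annotated loci and for 3.17% of 3881 transposable element genes. These shares count matches at any spacing, and the 12-base spacing was not searched for outside the family. AT5G34900 was at 0 in the F1 and at 2.18, 2.31 and 1.15 TPM in ddm1, and AT2G02210 at 0.151, 0.147 and 0 against 3.10, 2.19 and 1.20. AT2G15140 was at 0.674, 0.0364 and 0 TPM in the F1 and at 2.41, 1.83 and 1.46 in ddm1. The annotated start of these loci need not be where transcription starts, and a match is a description of the letters.

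Members at 0 in the F1 were mostly low in ddm1 as well. The 45 such loci held 38 Gypsy elements, 1 CACTA element and 2 loci outside the transposon annotation, and 42 of them lay in the pericentromeric windows. Their ddm1 counts summed over 3 libraries to between 42.8 and 524, with a median of 88.2, so against 3 counts over the F1 group ddm1 was at least 14.3-fold higher for each and at least 29.5-fold higher for the median one. A further 31 members had 1 to 3 F1 counts in all, and the depth does not separate these from 0.

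The 8 of highest mean ddm1 TPM differed widely in how firmly their counts bound the F1. AT1G40119, a Gypsy element, was at 7.74, 5.90 and 1.64 TPM in ddm1, at least 175-fold above the F1, although it has 9 near-identical copies. AT5G38365 was at 1.55, 1.29 and 0.860 TPM in ddm1, a bound of 133-fold. The CACTA member AT2G12305, described above with its active neighbour, had a bound of 104-fold. For AT5G34900 the bound was 77.0-fold, for AT1G43750 35.8-fold, for AT3G33085 28.4-fold and for AT5G29036 21.7-fold, and AT5G33391, at 2.85, 1.95 and 2.65 TPM in ddm1, had the lowest bound of these 8.

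Outside the transposon annotation stood 15 members. They summed to 11.7, 25.0 and 17.0 TPM in the F1 and to 221, 208 and 975 in ddm1, and 1 of them supplied most of the third ddm1 value. That locus is AT3G45525 (chr3:16697273-16697828, minus strand, 2 exons), annotated as a RING/U-box protein with a C6HC zinc finger, a domain of ubiquitin ligases. It stood at 6.82, 23.5 and 16.0 TPM in the F1 and at 73.5, 105 and 907 in ddm1. Its ddm1 mean of 362 (SD 472, n = 3) therefore rests on 1 library. Against the other ddm1 libraries alone, its F1 mean of 15.4 TPM exceeded the ratio set for members. Its membership thus rests on that library too. Without AT3G45525 the 275 other members summed to 62.8, 55.1 and 233 TPM in the F1 and to 2592, 2155 and 2867 in ddm1. The locus next to it, the transposable element gene AT3G45520 at 475 bases, was at 4.46, 7.48 and 14.2 TPM in the F1 and at 42.7, 50.5 and 423 in ddm1, with the same library highest.

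The other protein-coding members were low. AT5G01080 and AT4G29200, both annotated as related to beta-galactosidase, an enzyme that removes galactose from cell wall sugars, were at 0, 0.182 and 0 and at 0, 0.115 and 0.0781 TPM in the F1. In ddm1 they reached 3.42, 7.82 and 2.50 and 1.93, 3.06 and 2.99 TPM. AT5G28180, annotated as a galactose oxidase/kelch repeat protein, was at 0.113, 0 and 0.106 TPM in the F1 and 4.23, 2.05 and 3.71 in ddm1. AT5G29050, with a domain of unknown function, was at 0, 0.589 and 0.301 TPM against 2.15, 5.27 and 11.3.

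The remaining named loci outside the transposon annotation are not annotated as intact protein-coding genes. AT4G06622, a pseudogene with a near-identical Gypsy copy among the members, was at 0, 0.244 and 0.163 TPM in the F1 and 13.7, 13.3 and 21.3 in ddm1. The noncoding RNA AT5G28824 was at 0.183, 0 and 0 TPM against 2.53, 2.28 and 1.50. AT3G32905, the locus without annotation, was at 3.78, 0 and 0 TPM in the F1 and at 112, 59.9 and 19.1 in ddm1, so its ddm1 libraries spread widely. F1 library 3 was the highest F1 library for 2 of the 15.

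Members also stood next to each other. In 47 runs, 105 members followed one another with no other annotated locus between them, and 10 runs held 3 or more. The run with most loci was AT1G43740, AT1G43745, AT1G43750 and AT1G43755 (chr1:16513076-16527812, 14.7 kb), 4 Gypsy loci of 1 sequence group. AT1G43740 alone of these had F1 counts, at 0.0977 TPM in library 2, and stood at 0.607, 0.821 and 1.16 TPM in ddm1.

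The other 9 runs held 3 loci each. They were AT2G06310 to AT2G06335, AT2G09920 to AT2G09950, AT2G12780 to AT2G12810, AT3G33154 to AT3G33160, AT4G06734 to AT4G06736, AT5G29890 to AT5G30060, AT5G32035 to AT5G32071, AT5G32420 to AT5G32426 and AT5G35142 to AT5G35146. Levels within a run could differ widely. In the run of AT5G32053 its neighbours AT5G32035 and AT5G32071 stood at 30.8, 20.8 and 33.3 TPM and at 1.92, 1.02 and 1.23 TPM in ddm1, and all 3 had their highest F1 value in library 3.

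Transposable element genes beside the members were called higher in the F1 about as often as such genes in general. The nearest annotated non-member on each side gave 421 adjacent loci, of which 327 were transposable element genes, 118 were at 0 in all 9 libraries and 149 passed the filter on low counts. Of the 105 tested transposable element genes, 95 were called higher in ddm1 than in the wild type (90.5%) and 81 higher in the F1 than in the wild type (77.1%). For all 973 tested transposable element genes that are not members, the shares were 83.2% and 78.5%. Lower in the F1 than in ddm1 were 49 of the 105 (46.7%), against 32.2% of the 973. One of them, AT2G06740, 838 bases from the member AT2G06750, an element of no assigned class, was at 8.58, 13.0 and 14.8 TPM in the F1 and at 199, 174 and 178 in ddm1 (log2 difference -3.76, SE 0.35, edgeR adjusted p 0.000865). AT2G06740 was active in every F1 library and far below every ddm1 library. Its F1 mean met the ratio set for members, and only 0.0160 TPM in wild-type library 3 kept it out. The adjacent transposable element genes AT1G40310 and AT2G11500 were alike, with 0.0460 and 0.0136 TPM in wild-type library 3. Adjacent loci of this kind were not counted as a set.

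Adjacent loci outside the transposon annotation were also called. Some may still be transposons: AT2G06420, among the 94 such loci, is annotated as a putative En/Spm-like transposon. Of 44 tested, 9 were called higher in ddm1 than in the wild type (20.5%), 13 higher in the F1 than in the wild type (29.5%) and 7 lower in the F1 than in ddm1 (15.9%). Among all 16971 tested loci of this kind that are not members, the 44 included, the shares were 1.01%, 9.42% and 7.77%. That set was not matched to the 44 by position. Over all 149 tested adjacent loci, 104 were higher in ddm1 and 94 higher in the F1 than in the wild type, and 56 were lower in the F1 than in ddm1. The 56 fell to 27 without F1 library 1, 36 without F1 library 2 and 37 without ddm1 library 1. Members and adjacent loci lie in the same regions, and 59 of the 421 are themselves partly or strongly active loci of the same 920.

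Few genes of the silencing pathways were called. Of 37 listed genes, 32 passed the filter, and their median log2 difference was 0.11 for ddm1 against wild type, -0.07 for F1 against wild type and -0.26 for F1 against ddm1, beside 0.03, 0.12 and -0.01 for all tested loci. Calls in edgeR's quasi-likelihood test numbered 0, 1 and 2, all of them lower in the F1. Among all tested loci, 9.66% were lower in the F1 than in the wild type and 10.3% lower than in ddm1, so 1 and 2 of 32 are not above the general rate. Genes with an unadjusted edgeR p under 0.05 numbered 2 for ddm1 against wild type, 4 for F1 against wild type and 8 for F1 against ddm1. DESeq2 called 0, 4 and 7 in that order, and its share over all loci is not given here.

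Both genes called act on non-CG methylation. CMT3 (AT1G69770), the methyltransferase of CHG sites, was at 1.45, 5.75 and 1.89 CPM (counts scaled to library size) in the wild type, 0.231, 0.802 and 0.463 in the F1 and 1.64, 2.40 and 4.52 in ddm1. All 3 F1 libraries lay below the other 6, with log2 differences of -2.59 (SE 0.69, edgeR adjusted p 0.0259) against the wild type and -2.49 (SE 0.69, edgeR adjusted p 0.0399) against ddm1. AGO4 (AT2G27040), which carries small RNAs in RNA-directed DNA methylation, was at 6.49, 8.81 and 4.91 CPM in the wild type, 2.37, 2.12 and 4.58 in the F1 and 6.88, 8.34 and 12.8 in ddm1. Its log2 difference was -1.62 (SE 0.38, edgeR adjusted p 0.0234) against ddm1 and -1.15 (edgeR adjusted p 0.0562) against the wild type. F1 levels again lay below the others in every library. The count of 2 called genes became 0 without F1 library 1, 1 without F1 library 2, 6 without F1 library 3 and 8 with DESeq2, so these calls depend on single libraries and on the tool.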

How the data were processed

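Leaf total RNA depleted of ribosomal RNA was sequenced as single-end 50-base reads from directional libraries, per the labels' protocols. Per the submitters' processing notes, kallisto 0.46.0 and the TAIR10 genome were used, and the notes also name STAR, deepTools, DESeq2 1.22.2, R 3.6.1 and R 3.5.1. Per the file headers, the authors deposited for each library the estimated counts, the TPM and the target length of 33602 loci. Neither the index nor the strand setting of the counting was found in the labels, so reads from a locus and an overlapping antisense partner may not be told apart.

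From these values, members were selected on counts and TPM as described, and the members and all lists were chosen with earlier results of these data known. Estimated counts were rounded and tested in edgeR 4.0.16 (R 4.3.3) by the quasi-likelihood F test with TMM scaling and the default filterByExpr filter over all 9 libraries. P-values were adjusted by Benjamini-Hochberg over all tested loci, with a threshold of 0.05, and the procedure was tested on simulated data. Annotation and sequence came from the NCBI TAIR10.1 reference, in which 32835 loci were matched, and were processed with Python 3.11.15 and BLAST 2.17.0. A transposable element gene was taken from the annotation, and silent copies that share reads divide them. DESeq2 1.42.0, other filters and thresholds, a replicate block and leaving out each library were the alternatives.

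Loci were named by rule: the 8 members of highest ddm1 level, the 8 highest outside the transposon annotation, the 8 highest among those at 0 in the F1, and the 3 on either side of the ratio. Also named were the 6 highest with at least 80% of their F1 TPM in 1 library, the highest of each element class, the 6 adjacent loci of largest mean CPM called higher in both F1 and ddm1, the called silencing genes, the runs of 3 or more, and the 4 largest groups of near-identical copies by their leading locus. The CACTA pairs, the upstream repeat and the printed sequences were chosen after their values were seen. The replicates of a group differed by more than sampling noise, and each was counted.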

Additional observations from a re-analysis of the deposited data

How the results depend on the processing

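The number of members was 276 as defined and 179 with the F1 to ddm1 ratio set under 0.05; without each library in turn the rule gave 264 to 328. Fitting the F1 and wild-type libraries alone gave 33 members higher in the F1, against 103. With 1 library left out at a time, members called higher in ddm1 than in the wild type ranged from 225 to 276, higher in the F1 from 60 to 103, and lower in the F1 than in ddm1 from 129 to 255. Adjacent loci ranged from 94 to 114, 77 to 92 and 27 to 70 in the same contrasts, silencing genes called from 0 to 6, and 3′ neighbours of CACTA members called higher in the F1 from 17 to 19. DESeq2 called 8 silencing genes, against 2. With the replicate number as a block, members lower in the F1 than in ddm1 numbered 139 and silencing genes called 1. Deviations of libraries with the same number correlated from -0.43 to 0.20 over all pairs of groups, so the numbers do not pair all 3 groups. Between F1 and ddm1 they correlated at 0.06, 0.20 and 0.20, and those with different numbers at -0.19 to 0.09. Whether these 2 groups are paired was not tested. In 41 other settings the counts stayed within 1.5 times. The cause was not tested for any of these. Depth limits loci at or near 0 counts, where 3 counts over a group is the level that 0 allows.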
